A study of Rattus norvegicus with 12 samples.

Results

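The proteasome subunit genes were examined in the medial prefrontal cortex (mPFC) of rats. They were taken as every gene of the deposited count table whose symbol is Psm followed by a letter from a to g and a number, with a mean of at least 0.1 RPKM (reads scaled to gene length and to library size) over the 12 libraries. Of 29009 genes, 48 matched the symbol, and all 48 met the RPKM minimum and passed the filter on low counts before testing. They comprised 8 alpha subunits (Psma) and 11 beta subunits (Psmb) of the 20S core, 6 ATPases (Psmc) and 14 non-ATPase genes (Psmd) of the 19S cap, 4 activator genes (Psme), 4 assembly chaperones (Psmg) and the inhibitor gene Psmf1. Among the Psmd genes, Psmd5, Psmd9 and Psmd10 are known as assembly chaperones of the cap and are counted here with the non-ATPase genes.

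The series compared 3 groups of 4 adult male Sprague Dawley rats, with 1 library per rat. CPA+RO and CPA+veh rats underwent chronic PFC activation (CPA): an AAV placed in the mPFC carried hM3Dq, an engineered excitatory receptor, under a CaMKIIa promoter that is active in excitatory neurons, and its ligand CNO was supplied in the drinking water for 10 days. For the following 7 days, CPA+RO rats received daily RO6958375, a peptide agonist of the oxytocin receptor, and CPA+veh rats received the vehicle. The virus of control+veh rats encoded only the fluorophore, and they were given vehicle over the same 7 days. The study's methods describe the CNO in the drinking water for the whole experiment, with no exception for the controls, so that the virus as well as the activation set both CPA groups apart from them. The mPFC was dissected out of brain slices that had first served for recordings, and sequenced as bulk tissue, in which fewer cells of a type and less RNA per cell cannot be told apart.

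The proteasome degrades proteins tagged with ubiquitin. Its 20S core is a barrel of outer alpha rings and inner beta rings, in which Psmb5, Psmb6 and Psmb7 hold the proteolytic sites, and the 19S cap binds the tagged protein, removes the ubiquitin and unfolds the substrate with a ring of ATPases. Interferon induces alternative catalytic subunits (Psmb8, Psmb9 and Psmb10) that replace Psmb5, Psmb6 and Psmb7 and, together with the activator of Psme1 and Psme2, make up the immunoproteasome, which is known for cutting peptides for antigen presentation and in the brain is found mainly in glia. In neurons, protein turnover by the proteasome is known to take part in synaptic plasticity.

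Total counts were 67837257 to 79006972 per library in CPA+RO, 64993543 to 74277096 in CPA+veh and 68084135 to 77291797 in control+veh. Since 87.5% of the counts from 10 to 99 were even, each fragment may have been counted once per mate, in which case the depth in fragments is lower. All 9 excitatory neuron markers on the list, among them Slc17a7 and Camk2a, were measured, with a summed level of 4047 to 4576 CPM in CPA+RO, 4093 to 4838 CPM in CPA+veh and 3711 to 4189 CPM in control+veh. The library of CPA+veh replicate 2 stood apart, with a Spearman correlation across genes of -0.391 between gene length and the deviation from the mean log2 level of the 12 libraries (genes are not independent replicates), against -0.195 to 0.205 in the other 11 libraries. The members' medians in the comparisons with CPA+veh, and the fold changes of several but not all genes in which this library was high, are given with and without it.

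Levels between genes were compared per length, in RPKM. Most subunits of the core and the cap were above 10 RPKM, the chaperones and activators had lower medians, and 4 beta and alpha genes were below 2 RPKM. Highest were Psmb7, the trypsin-like catalytic subunit, at a mean of 156.7 RPKM over the 12 libraries (146.4 to 187), and Psmc5, an ATPase of the cap, at 156.1 RPKM (134.7 to 180.9). Psmb4, Psmb5 and Psmb1 of the beta rings followed at 135.3, 126.9 and 124.2 RPKM. Psmb7 and Psmc5 overlapped across libraries, as did Psmb4, Psmb5 and Psmb1 among each other.

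By role, the median over genes was 90.8 RPKM for the ATPases (40.9 to 156), 76.7 RPKM for the beta subunits, 70.1 RPKM for the alpha subunits and 59.2 RPKM for the non-ATPase genes of the cap (10.7 to 86.2). The activators had a median of 19.4 RPKM and the chaperones, which assemble the alpha ring and are not part of the finished particle, 10.9 RPKM. Over all 19094 genes tested the median was 3.67 RPKM. Among the activators, Psme3, of the nuclear activator, was at 39.6 RPKM, Psme1 at 27.4 RPKM, Psme2 at 11.5 RPKM, and Psme4, of the large monomeric activator, at 7.32 RPKM. The gene model lengths behind RPKM differed among subunits: Psma3, at 30.0 RPKM the lowest alpha subunit besides Psma8, had a model of 3169 bases, while those of the other alpha subunits were 853 to 1856 bases.

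Lowest were Psma8, the testis counterpart of Psma7, at 0.128 RPKM (0.04 to 0.22), and Psmb11, the thymus subunit, at 0.488 RPKM (0.36 to 0.69). Reads of Psma8 and of the much more abundant Psma7 (94.9 RPKM) come from related sequences, and how the counting treated reads that match both is not given in the sources used here. Psmb8 and Psmb9 were at 1.02 and 1.62 RPKM and Psmb10 at 17.1 RPKM, so the immunoproteasome subunits did not share a level. Psmb8 and Psmb9 overlapped across libraries (0.56 to 1.68 and 0.68 to 2.56 RPKM), and Psmb10 lay above both in each library (13.99 to 20.9 RPKM).

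**Figure D1:**
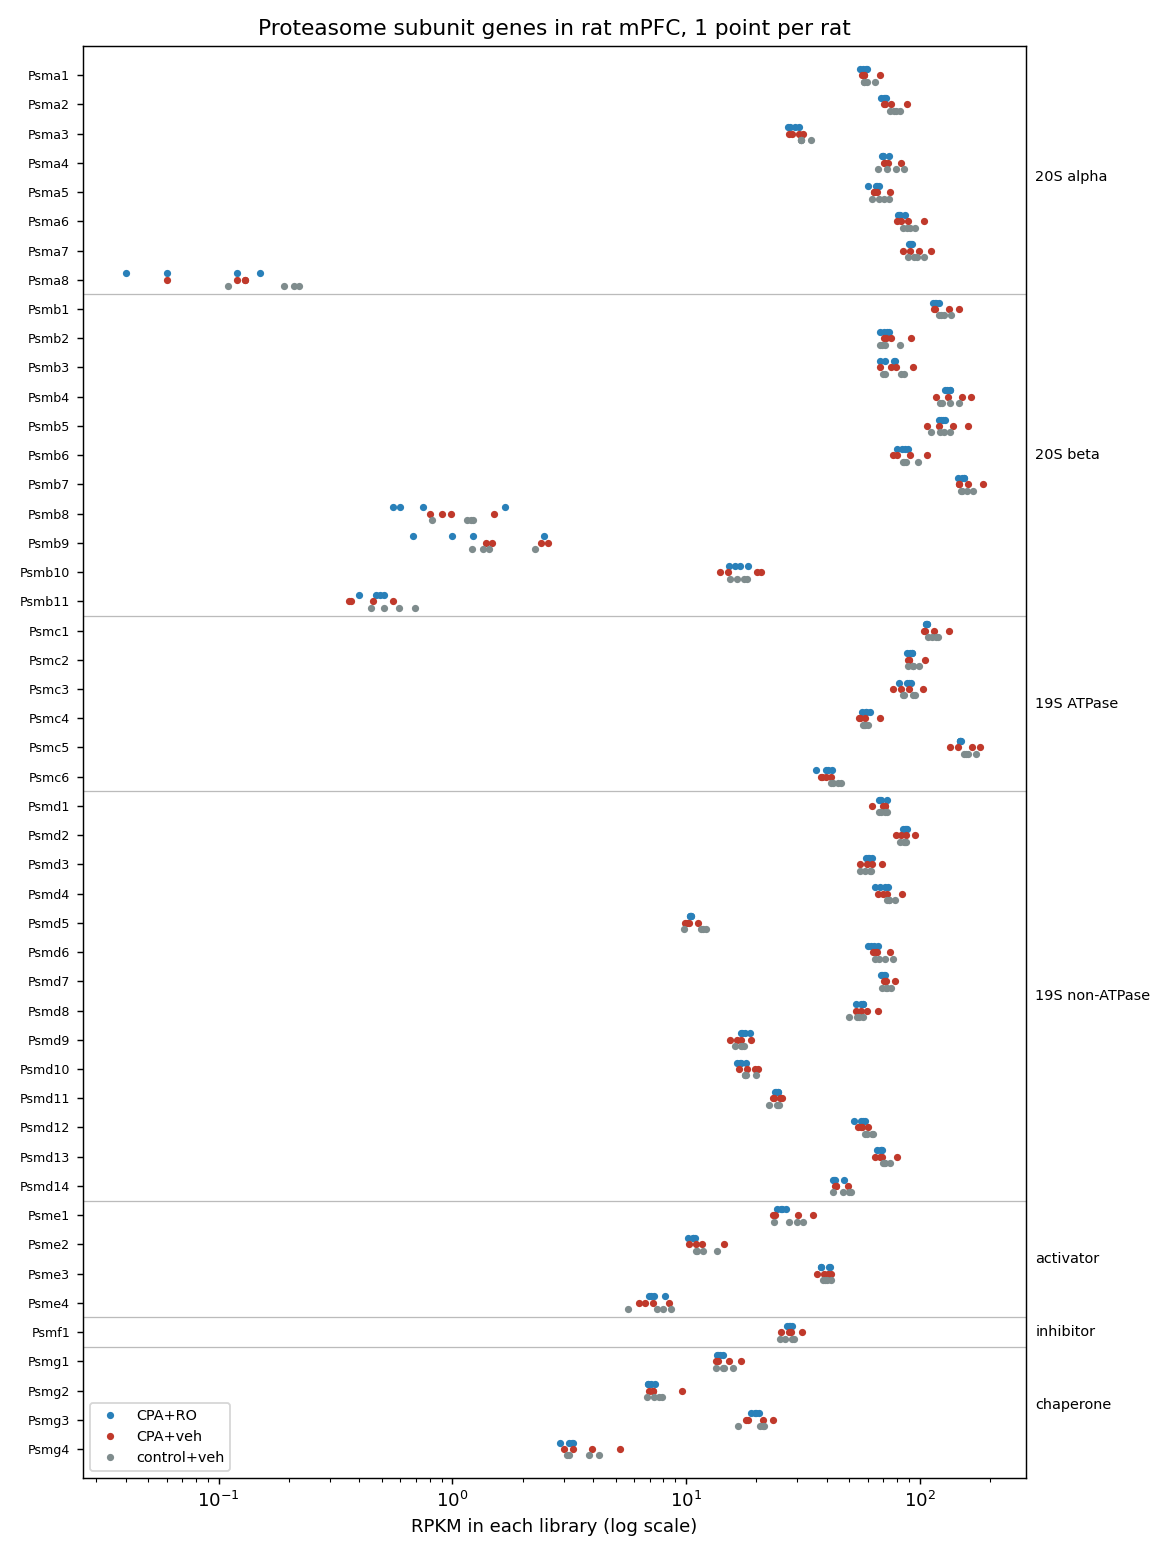
RPKM (log scale) of the 48 proteasome genes in each of the 12 libraries, 1 point per rat, with rows grouped by role and groups by colour. Most genes lie between 10 and 187 RPKM with narrow spread, while Psma8, Psmb11, Psmb8 and Psmb9 lie below 3 RPKM and spread most.

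Several genes of the immunoproteasome have close neighbours in the genome. On chromosome 20 of GRCr8, Psmb8 (bases 4654068 to 4657049) lies 1121 bases from Tap1, a subunit of the peptide transporter of antigen presentation, and Tap1 lies 408 bases from Psmb9 (4668952 to 4674421). Psme1 and Psme2 lie on chromosome 15 with 6602 bases between them, and Psmb5 and Psmb11 lie 7367 bases apart on the same chromosome. Whether other genes lie between them was not checked. Psmb10 lies on chromosome 19 (50740808 to 50743292).

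Promoter letters are shown for the alternative and standard catalytic subunits in which a motif was found, since their levels are compared below, and for the activator gene Psme2. RefSeq windows of GRCr8, from 250 bases before to 50 bases after the annotated start, were found for 43 of the 48 members (not for Psma7, Psmb11, Psmd6, Psmd12 and Psmd14). The core of the element bound by interferon regulatory factors (GAAA, any 2 bases, then GAAA) was searched on both strands and found in 7 of 43 member windows (16.3%), against 3.77% of all 27455 windows. TGACNNNGC, the core of the antioxidant response element bound by Nfe2l1 and Nfe2l2 with Maf proteins, was found in 8 of 43 (18.6%), against 12.2% of all windows. TTCNNNGAA, the core of the element bound by STAT proteins, was found in 4 of 43 (9.3%), against 8.68%. No motif pair overlaps in the stretches shown, each of which is 120 bases long and runs 5′ to 3′ on the strand of the gene, with the matching letters in capitals.
Psmb10 (chr19:50743296-50743415, minus strand): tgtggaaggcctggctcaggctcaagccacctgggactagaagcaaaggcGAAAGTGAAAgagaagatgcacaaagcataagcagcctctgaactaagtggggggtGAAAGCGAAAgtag
Psmb8 (chr20:4657022-4657141, minus strand): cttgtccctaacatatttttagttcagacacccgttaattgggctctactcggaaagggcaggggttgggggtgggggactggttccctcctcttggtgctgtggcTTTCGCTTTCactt
Psme2 (chr15:33052742-33052861, minus strand): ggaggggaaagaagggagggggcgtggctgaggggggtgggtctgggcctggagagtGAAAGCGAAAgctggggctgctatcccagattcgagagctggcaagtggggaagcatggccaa
Psmb5 (chr15:32047370-32047489, minus strand): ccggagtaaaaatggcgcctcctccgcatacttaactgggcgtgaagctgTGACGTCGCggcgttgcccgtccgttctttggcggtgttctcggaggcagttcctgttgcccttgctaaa
Psmb6 (chr10:55737778-55737897, plus strand): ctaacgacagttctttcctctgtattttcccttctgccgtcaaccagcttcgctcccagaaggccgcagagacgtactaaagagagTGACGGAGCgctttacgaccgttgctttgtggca
In the stretches of Psmb10, Psmb8 and Psme2 the capitals mark the interferon regulatory core, with Psmb10 holding it at 2 places (positions -73 and -17, counted from the start used for the window, which in Psmb6, Psmb8 and Psme2 lies inside the outer bounds of the gene) and Psmb8 on the opposite strand at -4. In Psmb5 and Psmb6 they mark TGACNNNGC, at -60 and -24. None of the 3 motifs was in the windows of Psmb9 and Psmb7, and the interferon regulatory core was also found in Psma4, Psmb3, Psmd7 and Psmg4. Tap1 had the interferon regulatory core at -121, and 44 bases of its window are shared with that of Psmb9. The matches are descriptions of these windows and not measured binding sites.

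The first comparison asked whether proteasome transcripts differed after chronic activation, in CPA+veh against control+veh. In edgeR's quasi-likelihood test none of the 48 members had an adjusted p under 0.05 (smallest 0.475), while 0.115% of all genes did. At an unadjusted p under 0.05 edgeR counted 2 members, Psmd8 and Psmc6, which is 2 of 48 beside 9.94% of all genes. DESeq2 and limma-voom also called no member and counted the same 2 genes unadjusted, and limma-voom with quality weights and limma on log2 RPKM called none and counted Psmc6 alone. The median log2 fold change over the members was 0.03 (35 above 0 and 13 below), against 0.0066 over all genes tested, and 45 of the 48 were within 0.2 of 0.

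Psmd8, a non-ATPase subunit of the cap (chromosome 1, bases 93601857 to 93608689), had the smallest p. It was at 92.8, 99.6, 87.1 and 81.0 CPM (counts scaled to a common library size, after TMM normalization) in CPA+veh rats, against 85.0, 81.2, 82.8 and 74.9 CPM in control+veh rats. The groups overlapped, and CPA+veh replicate 2 was highest. The log2 fold change was 0.15 (SE 0.06, 95% interval 0.02 to 0.29), with an adjusted p of 0.475 by edgeR, and 0.10 without CPA+veh replicate 2 (edgeR adjusted p = 0.656). Psmb2, a beta subunit, and Psmd3, a non-ATPase subunit of the cap, were among the 8 members of smallest p, with log2 fold changes of 0.12 (SE 0.08) and 0.09 (SE 0.06), and of 0.03 each without that library. Psmb4 was also among them at 0.13 (SE 0.09). So were Psmb11, Psma8 and Psmd5, below 0 at -0.32 (SE 0.19), -0.69 (SE 0.42) and -0.10 (SE 0.07).

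Psmc6, an ATPase of the cap (chromosome 15, 21022314 to 21043785), went the other way at 93.0, 98.2, 91.5 and 94.4 CPM in CPA+veh rats, against 106.8, 99.2, 100.3 and 105.5 CPM in control+veh rats. It was the only member without overlap between these groups, beside 4.62% of all genes. Its log2 fold change was -0.13 (SE 0.05, interval -0.24 to -0.01, edgeR adjusted p = 0.478). In CPA+RO rats it was at 86.6, 98.1, 101.4 and 95.4 CPM, with a log2 fold change of -0.11 against control+veh (SE 0.05, edgeR adjusted p = 0.879).

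The catalytic subunits of the standard core stayed within their spread. Psmb5, the chymotrypsin-like subunit (chromosome 15, 32042784 to 32047379), was at 120.9, 136.2, 104.6 and 91.5 CPM in CPA+veh rats, against 111.6, 104.0, 107.2 and 94.6 CPM in control+veh rats, and its log2 fold change was 0.12 (SE 0.10, interval -0.09 to 0.33). Psmb6, the caspase-like subunit, had a log2 fold change of 0.03 (interval -0.16 to 0.22) and Psmb7 of 0.06 (interval -0.08 to 0.20). In all 3 genes CPA+veh replicate 2 was the highest of the 12 libraries, and without it the log2 fold changes were 0.02 for Psmb5, -0.07 for Psmb6 and -0.01 for Psmb7. With 4 rats in a group, changes of the sizes within these intervals remain possible.

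The second comparison set CPA+RO against control+veh, and shares its control rats with the first. No member had an adjusted p under 0.05 by edgeR (smallest 0.859), beside 0.11% of all genes, and at an unadjusted p under 0.05 there was 1 member, Psma8, beside 5.75% of all genes. DESeq2 called and counted none. Limma-voom called none and counted Psma8, with quality weights it counted Psma2, Psma3 and Psma8, and limma on log2 RPKM called none and counted 6 (those 3, Psmc6, Psmd6 and Psmd12). The median log2 fold change was -0.04 (15 above 0 and 33 below), against 4.31e-05 over all genes. All 8 alpha subunits were below 0, with a median of -0.08, as were 5 of the 6 ATPases. Without control+veh replicate 1 the median over the members was -0.00575 (22 above 0), with 7 of the 8 alpha subunits and 3 of the 6 ATPases below 0, so the leaning of this median rested on that library.

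Psma2, an alpha subunit, was at 59.0, 61.2, 62.0 and 60.4 CPM in CPA+RO rats, against 68.0, 63.0, 66.6 and 65.4 CPM in control+veh rats. It and Psmc5 were the 2 members without overlap, both lower in CPA+RO, beside 5.57% of all genes. The log2 fold change of Psma2 was -0.12 (SE 0.06, interval -0.25 to 0.02, edgeR adjusted p = 0.879). Psmc5 was at 195.5, 194.7, 193.0 and 192.6 CPM in CPA+RO rats, the tightest of the groups, against 218.8, 197.6, 205.4 and 201.5 CPM in control+veh rats (log2 fold change -0.09, SE 0.08, edgeR adjusted p = 0.915). Psma3 had a log2 fold change of -0.12 (SE 0.06, edgeR adjusted p = 0.879). Psmd6 and Psmd12 were at -0.11 (SE 0.06) and -0.09 (SE 0.05). Above 0 among the 8 members of smallest p were Psmd8 and Psmd9, at 0.09 each (SE 0.06 and 0.07).

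Psma8 (chromosome 18, 6138226 to 6202802) had few counts: 16, 20, 8 and 6 in CPA+RO rats, 16, 8, 16 and 16 in CPA+veh rats and 14, 30, 26 and 28 in control+veh rats. The CPA+RO and control+veh rats overlapped, and the log2 fold change of -0.93 had an interval from -1.83 to -0.03 (SE 0.42, unadjusted p 0.0447, edgeR adjusted p = 0.859). At this depth a gene of a few fragments per library gives no firmer statement.

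The third comparison, CPA+RO against CPA+veh, asked whether the agonist changed proteasome transcripts after activation. No gene of the table had an adjusted p under 0.05 by edgeR (0% of all genes), and no member had an unadjusted p under 0.05 by edgeR, DESeq2, limma-voom with or without quality weights, or limma on log2 RPKM, beside 4.41% of all genes by edgeR. No member was without overlap, beside 1.95% of all genes. The median log2 fold change was -0.06, with 8 members above 0 and 40 below, against -0.0066 over all genes. All 8 alpha subunits and all 4 chaperones were below 0, as were 10 of the 11 beta subunits. Without CPA+veh replicate 2, 6 of the 8 alpha subunits, 3 of the 4 chaperones and 6 of the 11 beta subunits were below 0, with medians of -0.02, -0.02 and -0.0048.

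Psmg4, a chaperone of alpha ring assembly, had the smallest p. It was at 8.40, 8.12, 7.39 and 8.27 CPM in CPA+RO rats, against 10.2, 13.1, 7.76 and 8.29 CPM in CPA+veh rats, which overlapped them in replicates 3 and 4. Its log2 fold change was -0.29 (SE 0.15, interval -0.62 to 0.03, edgeR adjusted p = 0.876). Psmb1, a structural beta subunit, was at 125.2, 121.6, 129.3 and 124.0 CPM in CPA+RO rats, against 144.2, 153.7, 125.4 and 120.8 CPM in CPA+veh rats (log2 fold change -0.12, SE 0.07, edgeR adjusted p = 0.876). In both genes the CPA+veh rats spread more widely than the CPA+RO rats, with replicates 1 and 2 high. Psme2 was at 14.6, 14.6, 13.9 and 14.8 CPM in CPA+RO rats, against 16.1, 19.4, 14.1 and 14.8 CPM in CPA+veh rats (log2 fold change -0.16, SE 0.10), again with replicates 1 and 2 high. Without CPA+veh replicate 2 the log2 fold changes were -0.12 for Psmg4, -0.06 for Psmb1 and -0.05 for Psme2. Psmc1, an ATPase of the cap, had a log2 fold change of -0.10 (SE 0.07), and of -0.02 without that library. Psma2, Psmd10 and Psma6, also among the 8 members of smallest p, were at -0.11 (SE 0.06), -0.12 (SE 0.08) and -0.10 (SE 0.07). In each of them CPA+veh replicate 2 was the highest of the 12 libraries.

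**Figure D2:**
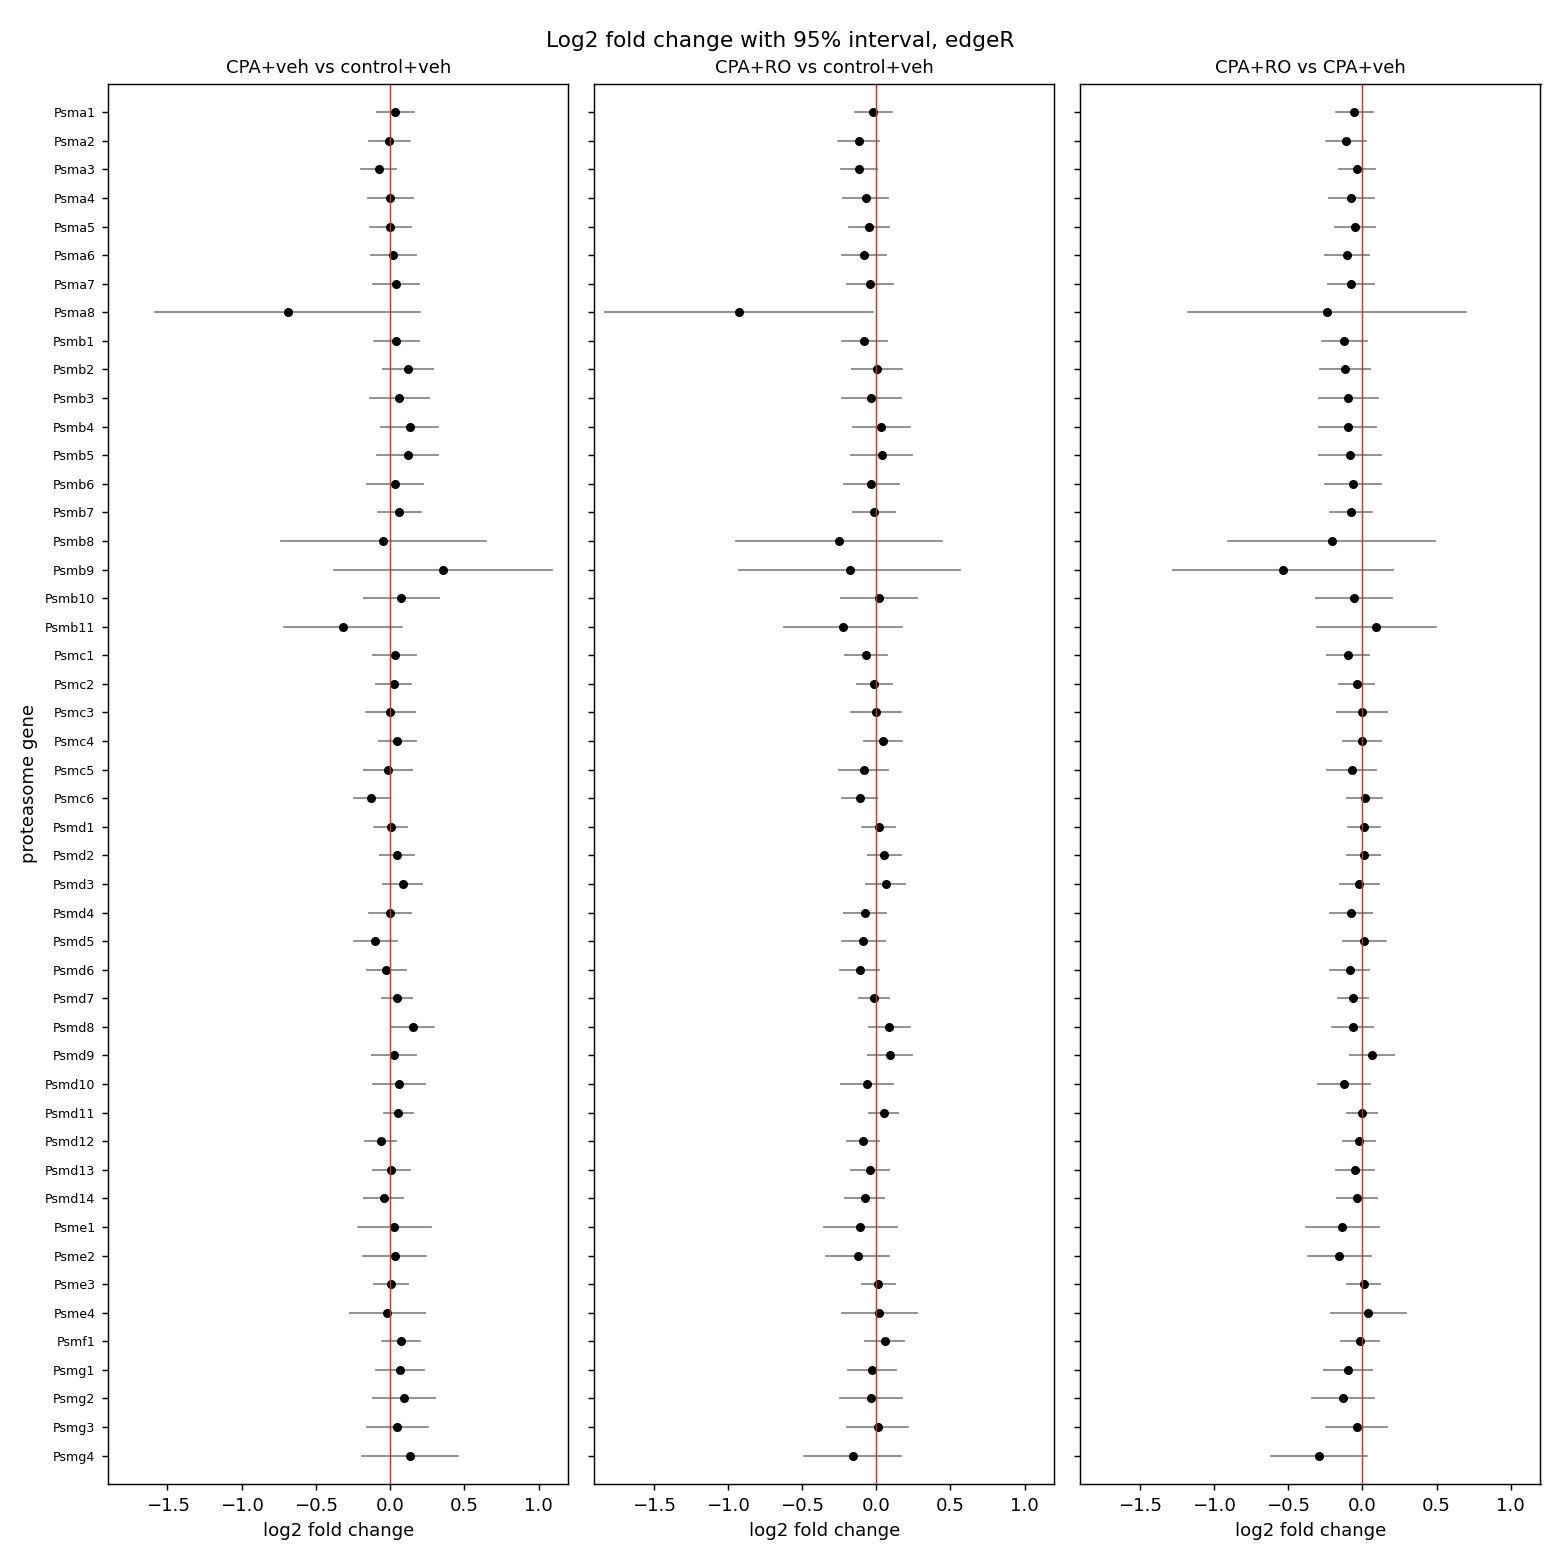
Log2 fold change (edgeR, point) with its 95% interval (line) of each proteasome gene in the 3 comparisons, named above each panel as the first group over the second. Most points lie within 0.2 of 0, and the intervals are widest for Psma8, Psmb8, Psmb9 and Psmb11, the genes of lowest level.

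Libraries differed in how many members were at their highest in them. CPA+veh replicate 2 was the highest of the 12 libraries for 33 of the 48 members (68.8%), against 18.8% of all genes, and the lowest for none. CPA+veh replicate 4, of the same group, was the lowest for 15 members. Relative to the mean of control+veh, the members' median log2 level was -0.07, -0.06, -0.02 and -0.02 in CPA+RO rats, 0.03, 0.20, -0.05 and -0.10 in CPA+veh rats and 0.07, -0.06, 0.02 and -0.03 in control+veh rats. The CPA+veh rats thus covered a wider range than either other group, with the replicate of highest median and the replicate of lowest median among all 12. The proteasome genes together took 0.376% ± 0.00638 of the counts in CPA+RO rats, 0.390% ± 0.0345 in CPA+veh rats and 0.391% ± 0.0173 in control+veh rats (SD, n = 4 each).

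Within CPA+veh replicate 2 every role group was above the control+veh mean. The medians were 0.31 on the log2 scale for the beta subunits and 0.31 for the chaperones, 0.19 for the ATPases and the activators, 0.17 for the alpha subunits and 0.14 for the non-ATPase genes. Short genes in general were high in this library: the median over the 26 members under 1500 bases was 0.23 and over the 22 longer members 0.12, beside 0.20 for all genes under 1500 bases and -0.02 for all longer ones. After a correction for the trend with gene length the members' median in this library was 0.04, and it was the highest library for 16 members in place of 33. The correction changed the medians of the comparisons to -0.022 for CPA+veh against control+veh, -0.025 for CPA+RO against control+veh and -0.0011 for CPA+RO against CPA+veh. Without CPA+veh replicate 2 the median of the first comparison was -0.0273 (11 members above 0) and that of the third was -0.0034 (23 above 0), so the leaning of both medians rested on 1 library.

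**Figure D3:**
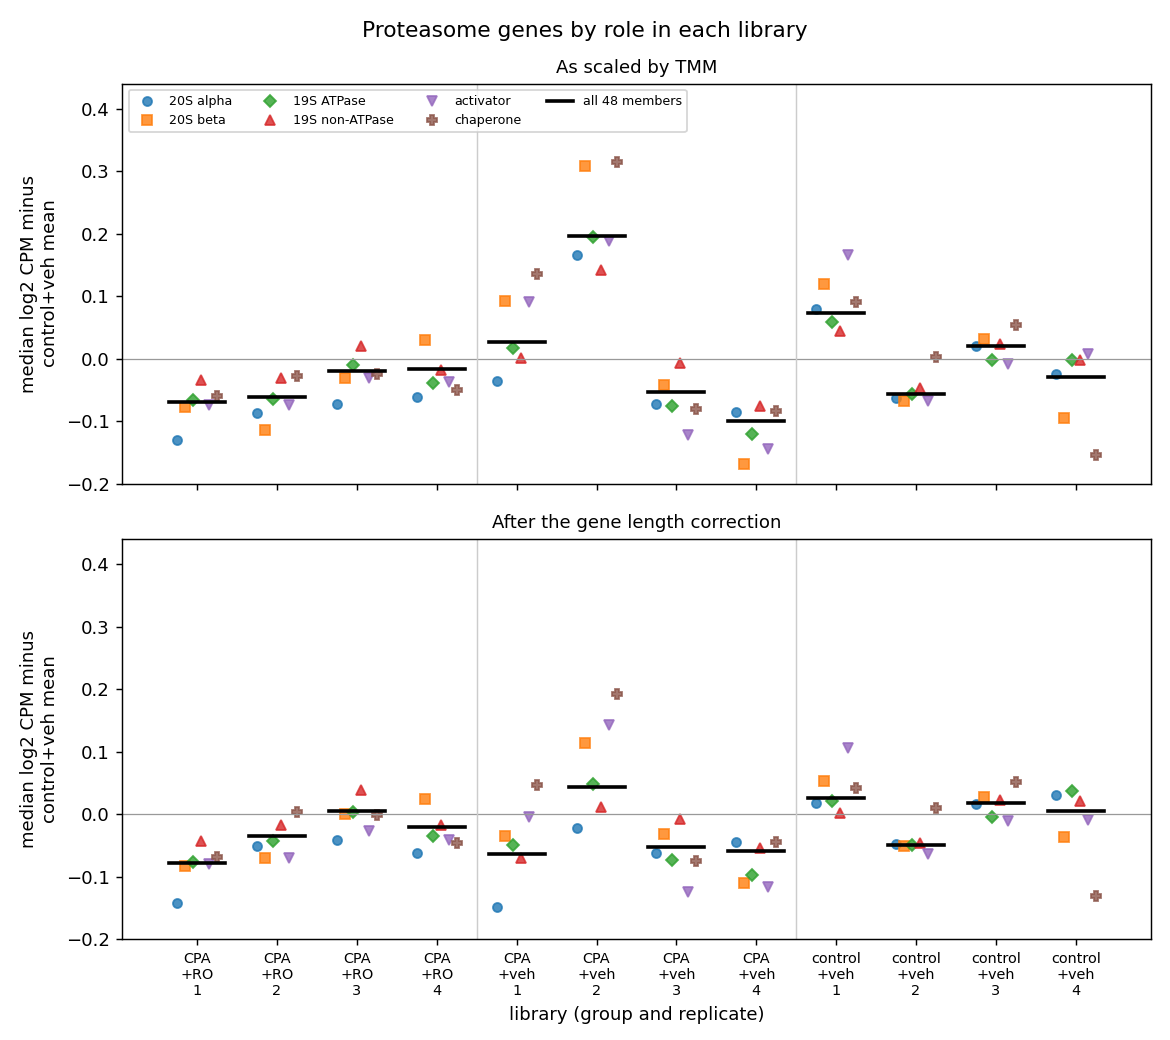
Median log2 CPM minus the control+veh mean over the genes of each role (markers) and over all 48 members (bars) in each library, as scaled by TMM (upper panel) and after the correction for gene length (lower panel). CPA+veh replicate 2 stands at 0.20 in the upper panel and at 0.04 in the lower one.

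**Figure D4:**
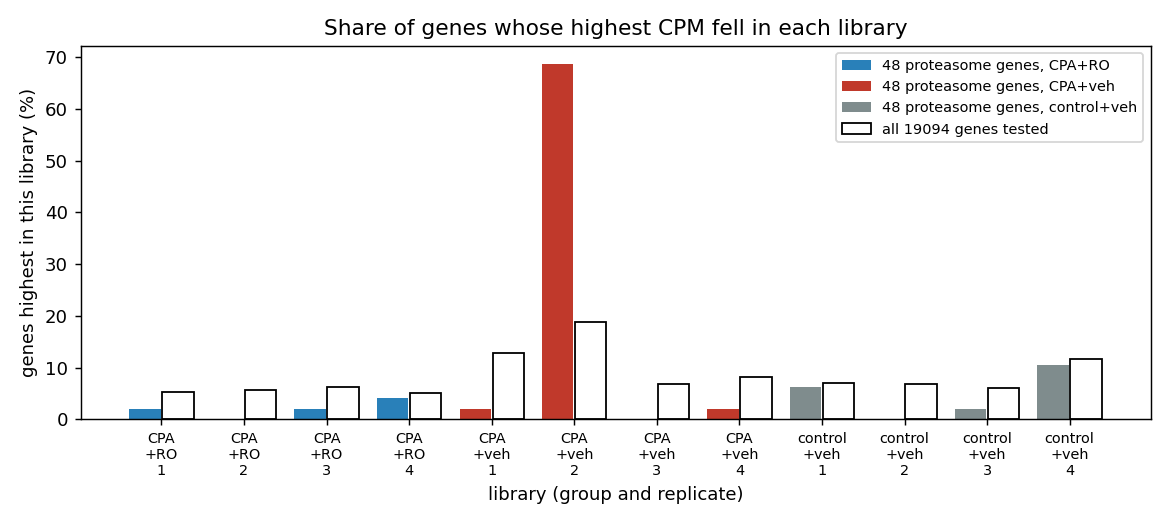
Share of genes, in percent, whose highest CPM over the 12 libraries fell in each library, for the 48 proteasome genes (filled, by group) and for all 19094 genes tested (open). CPA+veh replicate 2 holds 68.8% of the proteasome genes and 18.8% of all genes.

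Across replicates the members had a median SD within groups of 0.10 on the log2 scale, against 0.17 over all genes. The members also lay higher, at a median of 59.1 RPKM against 3.67 RPKM, and genes of matched level were not compared. Psmd11, a subunit of the lid of the cap, had an SD of 0.043 and Psmd7, another lid subunit, of 0.046. At the other end stood Psma8 (0.56), Psmb9 (0.55) and Psmb8 (0.49), all at low counts. Psmg4 and Psmb11 followed at 0.24 each, with levels of 3.53 and 0.488 RPKM. The spread of Psme4 (0.20) and Psmb10 (0.19) came at 7.32 and 17.1 RPKM.

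The immunoproteasome subunits were followed rat by rat. Psmb8 was at 0.661, 0.614, 0.818 and 1.83 CPM in CPA+RO rats, 0.989, 1.61, 1.09 and 0.856 CPM in CPA+veh rats and 1.26, 1.32, 1.24 and 0.871 CPM in control+veh rats. Psmb9 was at 0.920, 0.628, 1.13 and 2.27 CPM in CPA+RO rats, 2.23, 2.32, 1.38 and 1.26 CPM in CPA+veh rats and 2.01, 1.11, 1.22 and 1.28 CPM in control+veh rats. In both genes CPA+RO replicates 1 to 3 were low and replicate 4 was high. Psmb10, the most abundant of them, was at 15.5, 17.3, 16.3 and 18.5 CPM in CPA+RO rats, 20.5, 20.7, 15.3 and 13.9 CPM in CPA+veh rats and 17.7, 15.3, 17.5 and 16.4 CPM in control+veh rats, with the groups overlapping throughout.

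None of these differences passed the test. In CPA+veh against control+veh the log2 fold changes were -0.05 (SE 0.32) for Psmb8, 0.36 (SE 0.34) for Psmb9 and 0.07 (SE 0.12) for Psmb10, with edgeR adjusted p of 0.974, 0.749 and 0.856. CPA+veh replicate 2 was the highest of the 12 libraries for Psmb9 and Psmb10, and their values without it are not given. In CPA+RO against CPA+veh, Psmb9 had a log2 fold change of -0.54 (SE 0.35, interval -1.28 to 0.21, edgeR adjusted p = 0.876) and Psmb8 of -0.21 (SE 0.32). The intervals leave room for changes of over 1 on the log2 scale in Psmb9. Without CPA+RO replicate 4 the log2 fold changes of CPA+RO were -0.75 for Psmb8 and -0.65 for Psmb9 against control+veh (edgeR adjusted p = 0.802 and 0.955), and -0.71 and -1.01 against CPA+veh (edgeR adjusted p = 0.896 each), so that rat moved them by over 1.5 times.

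Each inducible subunit was then set against the standard subunit it replaces, as a ratio of RPKM in each rat. Psmb8 amounted to 0.714% ± 0.400 of Psmb5 in CPA+RO, 0.787% ± 0.122 in CPA+veh rats and 0.884% ± 0.113 in control+veh rats (SD, n = 4 each). Psmb9 amounted to 1.56% ± 0.850 of Psmb6 in CPA+RO, 2.16% ± 0.398 in CPA+veh and 1.75% ± 0.397 in control+veh. Psmb10 amounted to 11.05% ± 1.03 of Psmb7 in CPA+RO, 10.82% ± 1.30 in CPA+veh and 10.78% ± 0.373 in control+veh. Transcripts of the standard subunits thus outnumbered those of the inducible ones in each rat.

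In the 9 two-sided exact permutation tests of the log2 ratios, whose smallest possible p with 4 rats against 4 is 0.0286, the lowest p was 0.143 (adjusted 0.686), for Psmb9 over Psmb6 in CPA+veh against control+veh (log2 difference 0.32). For CPA+RO against CPA+veh the log2 difference of that ratio was -0.60 (exact permutation p = 0.171, adjusted 0.686). Psmb8 over Psmb5 differed by -0.44 between CPA+RO and control+veh (exact permutation p = 0.229, adjusted 0.686). For Psmb10 over Psmb7 the differences were 0.03 or smaller in size in each comparison, with adjusted p of 0.845 to 1. CPA+RO replicate 4 stood at 1.31% for Psmb8 and 2.78% for Psmb9, where the other CPA+RO rats were at 0.465% to 0.598% and 0.852% to 1.46%. Without this rat, Psmb8 over Psmb5 differed by -0.77 between CPA+RO and control+veh and Psmb9 over Psmb6 by -0.92 between CPA+RO and CPA+veh, each with an exact permutation p of 0.0286, the smallest that 3 rats against 4 can give (adjusted 0.129). The other exact permutation tests without it had p of 0.0571 or more. Since this rat was picked for its values of these ratios, these p give no independent test.

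**Figure D5:**
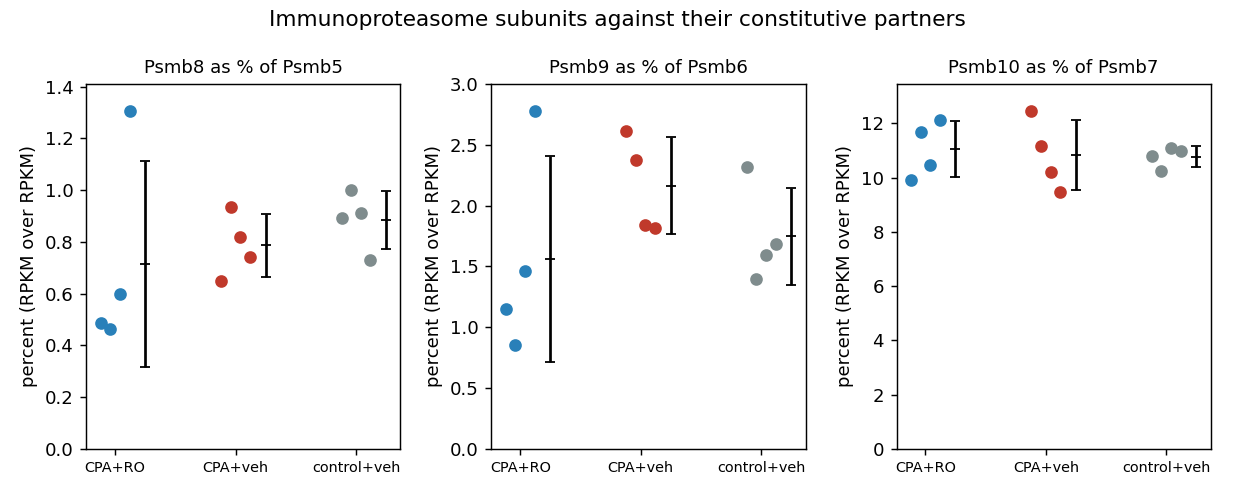
RPKM of Psmb8, Psmb9 and Psmb10 as a percentage of the RPKM of Psmb5, Psmb6 and Psmb7 in each rat (points), with the mean and SD of the 4 rats of each group (bar). The groups overlap in each panel, and in Psmb8 and Psmb9 the CPA+RO group holds 1 rat above its other 3.

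The partner activator genes gave the same picture of overlap. Psme1 was at 26.0, 24.9, 26.9 and 25.7 CPM in CPA+RO rats, 30.8, 34.8, 24.4 and 23.6 CPM in CPA+veh rats and 30.8, 23.7, 27.4 and 29.6 CPM in control+veh rats. Its log2 fold changes were 0.03 (SE 0.11) in CPA+veh and -0.11 (SE 0.11) in CPA+RO against control+veh. Without CPA+veh replicate 2 all 4 activator genes were below 0 in CPA+veh against control+veh, with a median of -0.05. Psme2 was close to the same values in CPA+RO against control+veh, at -0.13 (SE 0.10, edgeR adjusted p = 0.915). Tap1, the neighbour of Psmb9, was at 4.43, 3.22, 4.24 and 4.47 CPM in CPA+RO rats, 5.83, 4.52, 3.03 and 3.77 CPM in CPA+veh rats and 5.02, 3.47, 4.08 and 3.21 CPM in control+veh rats, and its CPA+RO replicate 4 did not stand apart as those of Psmb8 and Psmb9 did.

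Genes that act on or with the proteasome showed no adjusted call in edgeR either. Of the Nfe2l1 pathway, through which proteasome genes are induced when the proteasome is short, all 11 listed genes were tested. None was called in any comparison. In CPA+veh against control+veh 2 were up and none down at an unadjusted p under 0.05 (Mafg and Ddi2), beside 9.94% of all genes. The median log2 fold change there was 0.10. Nfe2l1 itself, the transcription factor, was at 351.4, 340.1, 357.5 and 350.0 CPM in CPA+RO rats, 357.6, 344.4, 358.0 and 348.3 CPM in CPA+veh rats and 333.1, 344.4, 340.6 and 343.8 CPM in control+veh rats, with log2 fold changes of 0.04 and 0.05 (SE 0.04 each) in CPA+RO and CPA+veh against control+veh. Mafg, a small Maf partner of Nfe2l1, had log2 fold changes of 0.19 in each of these comparisons (SE 0.04, edgeR adjusted p = 0.196 in CPA+RO and 0.214 in CPA+veh), and Keap1, which holds Nfe2l2 for degradation, had 0.15 (SE 0.08) in CPA+veh.

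Of 18 listed symbols, older ones among them, of genes whose proteins bind or assemble the proteasome, 15 were tested and none was called. In CPA+veh against control+veh 3 of them were lower and none higher at an unadjusted p under 0.05, beside 9.94% of all genes. Akirin2, which carries proteasomes into the nucleus, was at -0.15 (SE 0.06). Txnl1, a thioredoxin bound to the cap, was at -0.13 (SE 0.05), and Zfand5, an activator of the proteasome, at -0.15 (SE 0.06). Each had an edgeR adjusted p of 0.448 to 0.475. The p97 complex, which extracts ubiquitinated proteins (9 of 10 listed symbols tested), had a median log2 fold change of 0.00064 in CPA+RO against control+veh, with none called there or in CPA+veh. Antigen presentation genes (13 of 14 tested) had a median of 0.07 in CPA+veh and of -0.08 in CPA+RO against control+veh, with none called and none at an unadjusted p under 0.05.

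Cell type marker lists were at unequal levels across the groups. Beside their counts at an unadjusted p under 0.05 stand 9.94% of all genes in CPA+veh and 5.75% in CPA+RO against control+veh. None of their values is given without CPA+veh replicate 2. Of the 9 excitatory neuron markers, 7 were above 0 in CPA+RO (median log2 fold change 0.15, 3 higher at an unadjusted p under 0.05) and 6 in CPA+veh (median 0.13, 5 higher) against control+veh. All 10 oligodendrocyte markers were above 0 in CPA+veh against control+veh (median log2 fold change 0.26, 7 at an unadjusted p under 0.05), with a summed level of 2647 to 3019 CPM in CPA+RO, 2808 to 5041 CPM in CPA+veh and 2565 to 2945 CPM in control+veh. The 10 endothelial markers tested were all below 0 (median -0.32, 4 at an unadjusted p under 0.05), summing to 170.4 to 211.8 CPM in CPA+RO, 122.2 to 208.3 CPM in CPA+veh and 169.1 to 222.7 CPM in control+veh. Of the 12 microglia markers 11 were above 0 (median 0.15), summing to 467 to 522 CPM in CPA+RO, 482 to 625 CPM in CPA+veh and 465 to 540 CPM in control+veh. Of the 9 astrocyte markers 8 were above 0 (median 0.19, 2 higher at an unadjusted p under 0.05). They summed to 4080 to 4244 CPM in CPA+RO, 4041 to 5729 CPM in CPA+veh and 3573 to 4166 CPM in control+veh. In CPA+RO against CPA+veh all 10 oligodendrocyte markers were below 0 (median -0.25). At an unadjusted p under 0.05 by edgeR 6 of them were lower, beside 4.41% of all genes. Of the 10 endothelial markers 9 were above 0 there (median 0.19), with 0 at that threshold. In CPA+veh against control+veh the median log2 fold change was 0.04 for the 7 interneuron markers, 0.10 for the 6 striatal markers and -0.11 for the 4 choroid plexus markers tested of 5, whose summed level was at most 14.8 CPM in any library. Apart from Folr1 of the choroid plexus list none of these markers was at 0 in any library, none was called by edgeR, and their part in the values of the proteasome genes was not tested.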

How the data were processed

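RNA of the mPFC was sequenced in 12 rats (TruSeq Stranded mRNA, HiSeq4000). The authors deposited raw counts per gene, with no normalization, and RPKM that the authors made from them, rounded to 2 decimals. The submitters' processing notes name bcl2fastq, FastQC, STAR, SAMtools and the builds rn6 and Rnor_6.0, with versions, annotation and counting rule not given in the sources used here. Positions and promoter sequences are RefSeq's of GRCr8, in which all 48 members have the same symbol. Members, lists and tests were chosen with earlier results of these data known, and the interferon regulatory and STAT motifs were added after values had been seen.

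Counts were tested with edgeR 4.0.16 in R 4.3.3 (quasi-likelihood test, TMM, filterByExpr, Benjamini-Hochberg over 19094 genes), with all 12 libraries in 1 fit and group as the only term. Alternatives used DESeq2 1.42.0, limma 3.58.1 (voom, and log2(RPKM + 0.1)), other scalings and filters, a length correction (lowess, span 0.3), a replicate block, and each library left out. Log2 levels used a prior count of 2. Ratios were compared by exact permutation over 35 splits. Total counts were 64993543 to 79006972 per library. Intervals of 95% are for the log2 fold change between groups, as the estimate plus or minus the t quantile times its SE. In each comparison the members chosen for the text were the 8 of smallest p and the smallest of each role. The catalytic and inducible genes and the 4 highest and 4 lowest members were added. Fold changes of Psmf1, and of some of the others in some comparisons, are shown only in the figure of fold changes. Up to 3 genes of smallest p are named from the lists of the Nfe2l1 pathway and of proteasome-bound proteins (other lists are given by counts). The values of Psmc5 in the second comparison, and the genes Psme3, Psme4, Psma7, Psmd7, Psmd11 and Tap1, were chosen after values were seen. The scripts were tested on simulated data. The rats came in 2 cohorts by the study's methods. Since no label says which library belongs to which, no batch term was fitted. A further gene list is not reported here.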

Additional observations from a re-analysis of the deposited data

Results flagged for a closer look

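In 6 of 105 groups of 4 values checked for the named genes and ratios, 1 rat lay far from the other 3 of its group, by Dixon's test on the gap to the nearest rat. Chance gives about 1 in 20, or 5.25 of 105, and the checks share rats and genes, so they are not independent. In CPA+RO, replicate 4 was at 1.83 CPM for Psmb8, where the others were at 0.614 to 0.818 CPM, and its ratio of Psmb8 to Psmb5 was 1.31%, where the others were at 0.465% to 0.598%. Also in CPA+RO, replicate 3 was at 92.5 CPM for Psma6, where the others were at 86.9 to 87.6 CPM. In CPA+veh, replicate 2 was at 30.5 CPM for Psmd5, where the others were at 27.8 to 28.1 CPM, and at 15.5 CPM for Psmg2, where the others were at 11.5 to 12.1 CPM. In control+veh, replicate 4 was at 107 CPM for Psma3, where the others were at 95.8 to 97.5 CPM.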

How the results depend on the processing

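In the 29 alternatives no member passed an adjusted p of 0.05 in any comparison. The lowest was 0.147 by edgeR, for Psmd8 in CPA+veh against control+veh without CPA+veh replicate 4. With all libraries edgeR gave 0.475 for this gene. Of 2517 alternative values of the named members, 2362 kept their sign and 155 changed it, and none of those was called. Without CPA+veh replicates 1 and 2 together, the median log2 fold change of the members was -0.0849 in CPA+veh against control+veh and 0.0238 in CPA+RO against CPA+veh, opposite in sign to those with all libraries. Leaving out each library in turn gave medians of -0.0273 to 0.0631 in CPA+veh against control+veh, -0.0657 to -0.00575 in CPA+RO against control+veh and -0.105 to -0.0034 in CPA+RO against CPA+veh. The log2 difference of Psmb10 over Psmb7 ranged from -0.0714 to 0.0609, from -0.0149 to 0.0824 and from -0.0297 to 0.103 in the same order of comparisons, and was 0.000969 in CPA+veh against control+veh after the length correction. Halving the counts, chosen after seeing the data, gave medians of 0.0232, -0.0381 and -0.0593.

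With the replicate number as a replicate block no member was called, and the medians were 0.0251, -0.0355 and -0.0620 in the same order. Libraries of the same number did not deviate together (correlations of -0.106 to 0.0977 in 12 pairs, beside -0.123 to 0.117 in the 36 others), so the numbers were not read as pairing. Psma8, Psmb8, Psmb9 and Psmb11 had the fewest counts. With 4 rats a group, differences within the intervals given remain possible for all members.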
